A study of Arabidopsis thaliana with 18 samples.

Results

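The response of the Arabidopsis thaliana era1 mutant to the loss of nitrate was measured by comparing rosettes of plants given 0 mM nitrate with those of plants given 10 mM. Every gene of the 6 era1 libraries at these doses was used, out of 18 libraries in the series, with 3 libraries in each group. The count files hold 32744 genes, and 18358 of them had enough reads to be tested. The other libraries were era1 at 2 mM nitrate and wild type (WT) at 0, 2 and 10 mM, and the 6 WT libraries at 0 and 10 mM were used to ask where the response of era1 differed. By the labels all plants grew in potting soil under the same light, humidity and temperature and were sampled as rosettes at the same Boyes growth stage. The dose is the nitrate supplied, and what the soil itself held is not given in the sources used here. RNA was read from the 3' end of polyadenylated transcripts, so that a gene's count does not depend on its length. The submitters call the 3 libraries of a group biological replicates. Whether each came from 1 plant or from a pool is not given in the sources used here, and the p-values measure the spread between these libraries.

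Protein farnesyltransferase adds a farnesyl lipid to proteins with a CaaX motif at their end, which brings those proteins to membranes, and ERA1 is the gene for its beta subunit. Mutants that lack it are known for a strong response to abscisic acid, a hormone of drought and seed dormancy. Nitrate is both a nutrient and a signal in plants. It is taken up by transporters of the NRT and NPF families, stored in the vacuole, reduced to ammonium by nitrate reductase and nitrite reductase, and built into glutamine and glutamate by glutamine synthetase and glutamate synthase. Leaves that run out of nitrogen are known to take apart chloroplast protein, export the nitrogen to growing organs, store starch and make anthocyanin, a red flavonoid pigment.

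Most of the assayed tissue was leaf in both groups by its defining markers. The 48 nuclear photosynthesis genes summed to between 40391 and 46584 CPM (read counts scaled to a common TMM-adjusted library size) in the era1 libraries at 0 mM and to between 63195 and 68323 CPM in those at 10 mM. The 9 root markers summed to at most 84.8 CPM in any of these 6 libraries, with RHD6 and COBL9 at 0 reads, and the 6 floral organ markers summed to at most 8.51 CPM, in replicate 2 at 0 mM. The libraries held 5179170 to 5689428 gene counts at 0 mM and 5532857 to 5855026 at 10 mM. Chloroplast-encoded genes took 2.93% ± 0.279 (SD, n = 3) of gene counts at 0 mM and 2.03% ± 0.341 at 10 mM, and reads that the submitters' counter set aside as not unique were 4.74% ± 0.519 and 2.52% ± 0.261 of all counts in the files. Neither of these pairs of groups overlapped, and the exact two-sided permutation p of each was 0.1, the smallest that 3 against 3 libraries allow. The part of these shares in the gene results below was not tested.

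The library labels were first checked on the targeted gene. ERA1 (AT5G40280) was read at 1.93, 2.73 and 2.21 CPM in the 3 era1 libraries at 0 mM and at 1.52, 1.06 and 1.61 CPM at 10 mM, against 9.26 ± 0.453 CPM (SD, n = 3) in WT at 10 mM, a difference of -2.71 ± 0.23 on the log2 scale (SE, FDR 3.5e-09). FDR here is the p-value of edgeR's quasi-likelihood test after Benjamini-Hochberg adjustment over all 18358 genes, and a gene was called changed at an FDR under 0.05. ERA1 itself was not called between the doses in era1 (log2 fold change 0.71 ± 0.29, FDR 0.079), but was called under library totals alone (0.83, FDR 0.036). The label of the mutant describes an insertional T-DNA knockout and prints another locus, AT5G66470, whose level at 10 mM did not pass the test between genotypes (log2 difference -0.12 ± 0.13, FDR 0.51). At 0 mM AT5G66470 was lower in era1 than in WT (log2 difference -0.69 ± 0.15, FDR 4.6e-04). It fell from 44.2, 38.4 and 40.2 CPM to 20.3, 16.9 and 13.9 CPM in era1 and from 47.0, 42.8 and 43.7 CPM to 26.6, 22.3 and 33.1 CPM in WT. The interaction of -0.57 ± 0.20 (era1 response minus WT response, FDR 0.026) was not called under library totals alone (FDR 0.091), nor without replicate 3 of WT or of era1 at 0 mM, replicate 2 of WT at 10 mM or replicate 1 of era1 at 10 mM (FDR 0.054 to 0.11). A 3' read can lie beyond an insertion, so a low remaining count does not show whether a functional transcript was made. Among the partners of ERA1, FTA, the alpha subunit that 2 protein prenyltransferases share, was read at 21.4, 22.2 and 20.4 CPM at 0 mM and 24.6, 25.6 and 19.5 CPM at 10 mM and was not called (FDR 0.39). PGGT-I, the beta subunit of the other, which adds a geranylgeranyl lipid, was also not called (log2 fold change 0.06 ± 0.21, FDR 0.84).

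Between 0 and 10 mM nitrate 10197 of the 18358 tested genes changed in era1, in nearly equal numbers in each direction. Of all tested genes, 5054 (27.5%) were higher at 0 mM and 5143 (28.0%) were lower. Together these were 55.5% of tested genes, the share to read beside each list count below. No list was tested against it. A change of at least 2-fold was reached by 1433 higher genes (7.81%) and 1438 lower genes (7.83%). Scaling by library totals alone, without TMM, gave 6396 higher and 4038 lower, which moved the share of higher genes among those called from 49.6% to 61.3% and the median log2 fold change of all genes from 0.003 to 0.13. The groups did not overlap at 10947 genes (59.6%). Rises and falls of single genes are given below as log2 fold changes with the SE of the fit, levels as CPM in replicates 1, 2 and 3. In whole rosettes, fewer cells of a type and less RNA per cell cannot be told apart, and this holds for every change below.

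Nitrate transporters stood among the genes with the largest changes, and they moved in both directions. Of 18 tested transport genes, 11 rose and 4 fell at 0 mM, with a median log2 fold change of 0.98. NRT2.5, a high-affinity transporter known from long nitrogen starvation, was read at 16.5, 22.3 and 22.7 CPM at 0 mM and had no read in any of the 3 libraries at 10 mM. With a floor of 3 counts over that group, its level was at least 118-fold higher at 0 mM. NRT2.6, of the same family, was read at 8.59, 2.41 and 5.999 CPM at 0 mM and 0.169, 0.353 and 0.357 CPM at 10 mM (log2 fold change 4.17 ± 0.56, FDR 1.2e-06), so that its lowest value at 0 mM was above its highest at 10 mM. The dual-affinity transporter and nitrate sensor NRT1.1 rose by 1.61 ± 0.09 from 85.7, 80.9 and 78.6 CPM to 237, 256 and 257 CPM (FDR 8.0e-14).

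Transporters that move nitrate between organs went in both directions. NRT1.5, which loads xylem, was read at 124, 102 and 153 CPM at 0 mM and 42.0, 54.1 and 35.6 CPM at 10 mM (log2 fold change 1.53 ± 0.15, FDR 3.8e-09). NRT1.8, which unloads xylem, rose from 1.01, 1.06 and 0.893 CPM to 10.9, 7.55 and 14.4 CPM (log2 fold change 3.44 ± 0.51, FDR 3.9e-06). NRT1.7, which loads phloem with nitrate from old leaves, rose by 1.06 ± 0.13 (FDR 3.5e-07), from 27.5, 27.7 and 33.1 CPM to 52.6, 69.7 and 61.6 CPM. AT1G52190 (NRT1.11), which passes nitrate from xylem to phloem in leaves, fell by 0.44 ± 0.12 (FDR 0.0031), from 275, 211 and 297 CPM to 178, 220.1 and 177 CPM, with groups that overlap. NRT1.9, a phloem loader of roots, was at 14.3, 7.94 and 12.1 CPM at 10 mM and 10.2, 8.99 and 8.37 CPM at 0 mM and was not called (log2 fold change -0.33 ± 0.17, FDR 0.11), but was called without replicate 2 of era1 at 10 mM (FDR 0.0061). Vacuolar channels of the CLC family did not move as 1 group. CLC-A, the nitrate/proton exchanger that fills the vacuole, was read at 16.1, 11.6 and 9.95 CPM at 0 mM and 149, 137 and 144 CPM at 10 mM and fell by 3.52 ± 0.11 on the log2 scale (FDR 6.8e-18). CLC-B fell by 0.99 ± 0.13 and CLC-C rose by 1.62 ± 0.14 (FDR 7.8e-07 and 3.8e-10).

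Genes of nitrate assimilation and of the early nitrate response were mostly lower at 0 mM. Of 26 tested genes of this list, 19 fell and 4 rose (median -0.73). NIA1, a nitrate reductase, was read at 52.6, 41.1 and 51.8 CPM at 0 mM and 323, 252 and 303 CPM at 10 mM (log2 fold change -2.595 ± 0.18, FDR 1.0e-11). NIA2, the other nitrate reductase, fell less far, from 888, 724 and 889 CPM to 521, 519 and 513 CPM (log2 fold change -0.69 ± 0.08, FDR 1.5e-07). Nitrite reductase, NIR1, fell from 516, 386 and 509 CPM to 78.0, 83.5 and 55.1 CPM (log2 fold change -2.71 ± 0.12, FDR 4.9e-15). For these enzymes no library at 0 mM reached the lowest library at 10 mM.

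The LBD transcription factors, which nitrate induces and which repress nitrogen and anthocyanin genes, all fell steeply. LBD39 was read at 0.526, 0.642 and 0.158 CPM at 0 mM and 35.1, 27.9 and 32.5 CPM at 10 mM (log2 fold change -6.11 ± 0.28, FDR 4.6e-15). LBD38 fell from 27.8, 19.9 and 34.3 CPM to 2.80, 1.93 and 1.105 CPM and LBD37 from 86.7, 91.0 and 85.0 CPM to 17.7, 12.05 and 13.4 CPM (log2 fold changes -3.82 ± 0.26 and -2.61 ± 0.13). BT2, a nitrate-induced scaffold protein, had 9.95, 5.11 and 10.4 CPM at 10 mM and 0, 0.161 and 0 CPM at 0 mM, where it rested on a single read. HRS1, a repressor that links nitrate to phosphate signalling, had 1.86, 1.23 and 1.79 CPM at 10 mM and no read at 0 mM, at least 9.92-fold lower with a floor of 3 counts over the group. The regulators TCP20 and AT1G64530, listed as the nitrate factor NLP6, were among the 4 that rose (log2 fold changes 0.84 ± 0.19 and 0.90 ± 0.21).

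Glutamine synthetase isoforms moved in both directions among those given here, and the tested isoforms GSR2 and GSKB6 are not described. The cytosolic enzyme GLN1;4 was read at 69.4, 94.4 and 91.9 CPM at 0 mM and 2.87, 5.64 and 3.57 CPM at 10 mM (log2 fold change 4.40 ± 0.19, FDR 1.8e-15). GSR 1, the cytosolic isoform GLN1;1, rose from 15.9, 12.7 and 16.1 CPM to 114, 106 and 133 CPM (log2 fold change 2.98 ± 0.12, FDR 3.7e-16). The plastid enzyme GS2 fell from 787, 692 and 808 CPM to 465, 464 and 413 CPM (log2 fold change -0.77 ± 0.07, FDR 8.2e-10). The glutamate synthases of the list, GLT1 and GLU1, fell as well (log2 fold changes -2.04 ± 0.11 and -0.41 ± 0.08). GLT1 went from 133, 111 and 147 CPM to 32.1, 34.9 and 28.4 CPM and GLU1 from 286, 271 and 278 CPM to 197, 217 and 214 CPM. The asparagine synthetases ASN2 and ASN1 fell further, and ASN3, also tested, is not described. ASN2 was read at 30.8, 28.6 and 24.9 CPM at 0 mM and 359, 309 and 348 CPM at 10 mM, and ASN1 at 2.28, 2.25 and 3.32 CPM and 20.6, 25.04 and 32.9 CPM (log2 fold changes -3.59 ± 0.11 and -3.30 ± 0.38).

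**Figure D1:**
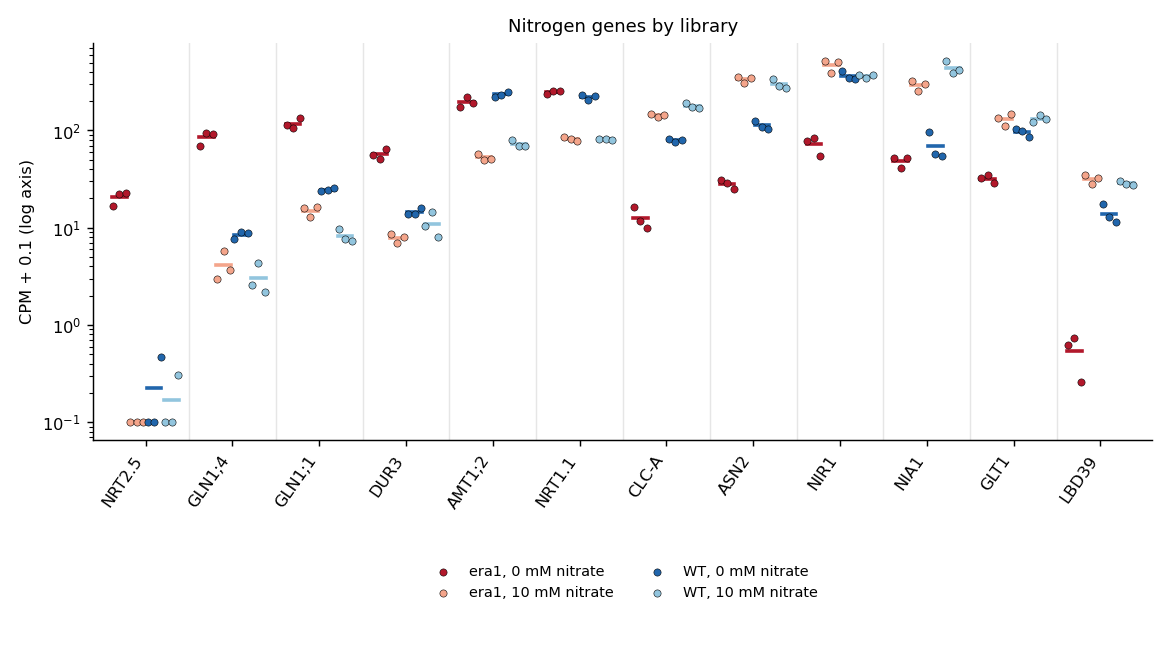
Level of 12 nitrogen genes in each library, as CPM plus 0.1 on a log axis, in era1 and WT at 0 and 10 mM nitrate. Points are libraries and lines are group means (n = 3). NRT2.5 lies at 0 CPM in the 3 era1 libraries at 10 mM and at 16.5, 22.3 and 22.7 CPM at 0 mM, and NIR1 is low in the era1 libraries at 0 mM among these groups.

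Uptake of other nitrogen sources and remobilisation moved mostly upward. Of 25 tested genes, 16 rose and 6 fell (median 0.48). DUR3, a high-affinity urea transporter, was read at 55.7, 51.1 and 64.9 CPM at 0 mM and 8.43, 6.88 and 7.86 CPM at 10 mM (log2 fold change 2.88 ± 0.14, FDR 2.4e-14). The ammonium transporters AMT1;2 and AMT1;1 rose by 1.89 ± 0.10 and 0.76 ± 0.09, from 57.7, 49.6 and 51.1 CPM to 175, 222 and 192 CPM and from 118, 126 and 116 CPM to 211, 188 and 211 CPM. All the libraries at 0 mM were above all those at 10 mM for these transporters.

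Genes of amino acid import and breakdown were among those that rose. LHT1, an amino acid importer of leaf cells, rose from 7.93, 7.76 and 7.15 CPM to 42.9, 41.0 and 44.4 CPM (log2 fold change 2.49 ± 0.17, FDR 8.0e-12), and AAP6 rose by 2.17 ± 0.10. AAP1, a related permease, was lower at 0 mM (log2 fold change -1.09 ± 0.11, FDR 4.3e-09). ERD5, the proline dehydrogenase that starts proline breakdown, was read at 91.8, 63.4 and 119 CPM at 0 mM and 13.8, 8.82 and 20.5 CPM at 10 mM (log2 fold change 2.67 ± 0.26, FDR 3.4e-09). BCAT-2, a branched-chain aminotransferase, rose from 1.52, 4.23 and 2.14 CPM to 14.0, 19.4 and 15.5 CPM (log2 fold change 2.63 ± 0.25). THA1, a threonine aldolase, rose from 1.01, 1.06 and 0.357 CPM to 15.2, 12.4 and 13.3 CPM, and NIT4, a nitrilase that acts in cyanide detoxification, from 7.42, 7.94 and 8.58 CPM to 123, 204 and 159.6 CPM (log2 fold changes 4.03 ± 0.34 and 4.35 ± 0.19). PPDK, which helps to make transport amino acids in ageing leaves, rose by 1.63 ± 0.10 (FDR 5.0e-13).

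The anthocyanin pathway rose almost as a whole. Of 31 tested genes, 27 rose and 2 fell, with a median of 1.33. The 2 that fell, the shared phenylpropanoid genes C4H and OMT1, changed by -0.24 and -0.22 and lost their calls under library totals alone. MYB90, also known as PAP2, a MYB factor that switches on late pathway genes, was read at 112, 134 and 122 CPM at 0 mM and 0.169, 1.23 and 0.715 CPM at 10 mM (log2 fold change 7.41 ± 0.22, FDR 3.2e-18). Its relative PAP1 (MYB75) started from a higher level and rose from 85.0, 92.4 and 70.4 CPM to 206, 232 and 193 CPM (log2 fold change 1.35 ± 0.11, FDR 1.2e-10). Their bHLH partner TT8 rose from 2.19, 2.998 and 2.68 CPM to 18.6, 24.7 and 17.37 CPM (log2 fold change 2.94 ± 0.23). MYB90 lies in tandem with MYB113 and MYB114, near copies whose reads could be divided between them, and these were read at 1.58, 2.09 and 1.89 CPM and 2.63, 4.02 and 3.47 CPM at 0 mM.

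The enzymes are given in the order of the pathway. PAL1, which starts phenylpropanoid synthesis, rose by 1.27 ± 0.11 and TT4, chalcone synthase, by 0.80 ± 0.13 on the log2 scale. F3H rose by 1.26 ± 0.12, from 136, 155 and 123 CPM to 347, 351 and 294 CPM. TT7, the flavonoid 3'-hydroxylase, rose from 7.59, 5.64 and 5.72 CPM to 69.2, 56.5 and 55.1 CPM (log2 fold change 3.24 ± 0.18), above the values of DFR, LDOX and GSTF12 given next, a difference that was not tested. DFR, the first enzyme of the anthocyanin branch, was read at 380.2, 374 and 337 CPM at 0 mM and 74.7, 97.9 and 67.4 CPM at 10 mM (log2 fold change 2.18 ± 0.16). LDOX, the next step, rose by 2.43 ± 0.14. The decorating enzymes UF3GT, a xylosyltransferase, and AT5MAT, a malonyltransferase, rose from 10.6, 12.7 and 8.93 CPM to 91.8, 89.9 and 90.0 CPM and from 6.07, 5.11 and 6.07 CPM to 53.6, 57.3 and 53.4 CPM (log2 fold changes 3.07 ± 0.18 and 3.25 ± 0.15). GSTF12, known as TT19, which carries the pigment towards the vacuole, rose by 2.701 ± 0.16. DFR and UF3GT also rose in WT: DFR went from 14.5, 16.3 and 13.5 CPM at 10 mM to 53.1, 40.7 and 34.9 CPM at 0 mM and UF3GT from 1.43, 1.71 and 1.04 CPM to 11.3, 9.01 and 6.10 CPM.

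**Figure D2:**
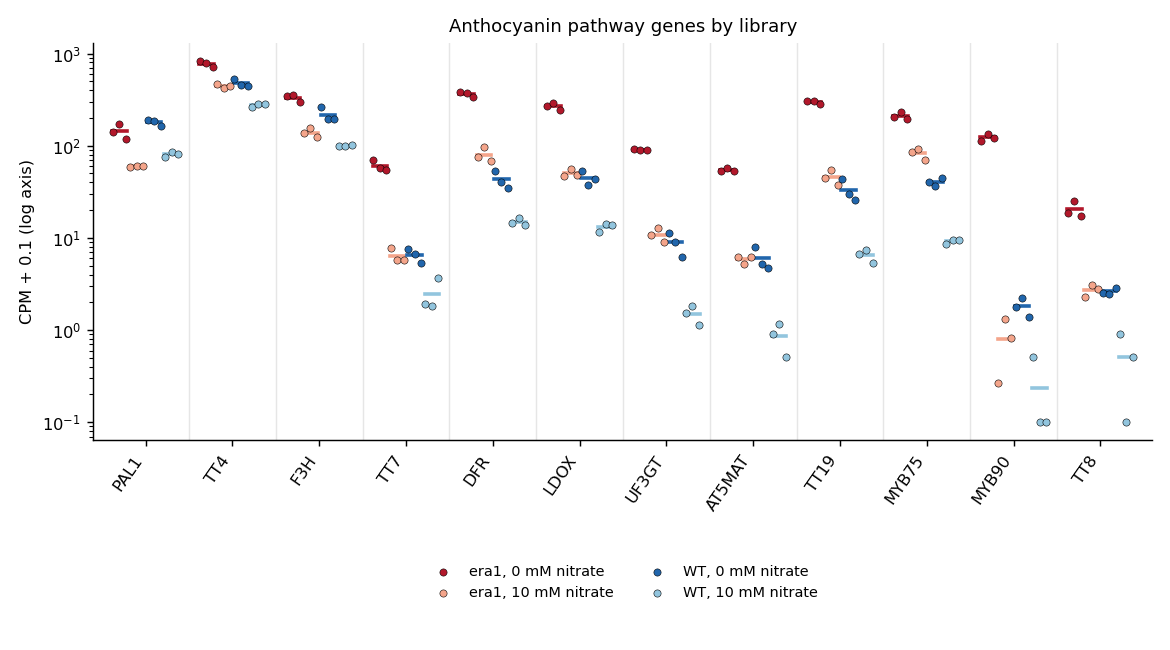
Level of 12 anthocyanin pathway genes in each library, as CPM plus 0.1 on a log axis, ordered from entry enzymes to late enzymes and regulators. Points are libraries and lines are group means (n = 3). For MYB90 the era1 libraries at 0 mM lie at 112, 134 and 122 CPM and those at 10 mM at 0.169, 1.23 and 0.715 CPM.

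MYB and bHLH factors are known to work with factors that read the G-box, and 4 promoters of the pathway are shown because these genes rose together and hold that motif. Sequences are from the RefSeq TAIR10.1 genome with its annotation, 5' to 3' on the strand of the gene, and capitals mark the G-box CACGTG, a palindrome, searched on both strands in the 300 bases before each annotated gene start. In MYB90 the G-box begins at position -46, where -1 is the base before the gene start, and UF3GT holds a pair that begin at -171 and -128.
MYB90 (chr1:24763641-24763940, plus strand): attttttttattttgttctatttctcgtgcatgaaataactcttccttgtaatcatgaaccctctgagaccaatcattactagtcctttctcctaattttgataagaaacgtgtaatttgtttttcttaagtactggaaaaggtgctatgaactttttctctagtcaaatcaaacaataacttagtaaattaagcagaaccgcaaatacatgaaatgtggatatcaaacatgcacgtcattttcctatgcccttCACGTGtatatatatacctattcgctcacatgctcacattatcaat
UF3GT (chr5:21938494-21938592, minus strand): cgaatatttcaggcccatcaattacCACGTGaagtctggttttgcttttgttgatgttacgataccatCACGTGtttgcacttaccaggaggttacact
DFR (chr5:17166033-17166071, minus strand): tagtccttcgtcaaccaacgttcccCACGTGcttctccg
F3H (chr3:19024918-19024973, plus strand): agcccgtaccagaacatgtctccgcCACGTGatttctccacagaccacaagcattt
The G-box lay in 8 of 31 promoters of the list (25.8%) and in 7.09% of all 27437 promoters of that length. It lay in 8.21% of the 17751 promoters of tested genes. The share was 9.49% for genes at least 2-fold higher and 9.05% for those at least 2-fold lower. Of the 27 genes of the list that rose, 7 held it. This is a count of letters, and no binding was measured.

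Carbohydrate genes were more often higher than lower at 0 mM. Of 53 tested genes of starch and sugar metabolism and transport, 28 rose and 11 fell (median 0.52). GPT2, which imports glucose-6-phosphate into plastids, was read at 151, 282 and 177 CPM at 0 mM and 3.20, 3.53 and 3.75 CPM at 10 mM (log2 fold change 5.86 ± 0.27, FDR 5.4e-15). The starch synthesis genes APL3, a subunit of ADP-glucose pyrophosphorylase, and GBSS1, granule-bound starch synthase, rose by 2.05 ± 0.11 and 1.56 ± 0.09. Starch breakdown genes rose too, CT-BMY, a plastid beta-amylase, from 197, 175 and 185 CPM to 608, 644 and 575 CPM, and SEX4, a glucan phosphatase, by 1.39 ± 0.10. ISA3, a debranching enzyme, rose from 8.27, 7.05 and 5.003 CPM to 24.4, 40.6 and 26.1 CPM (log2 fold change 2.16 ± 0.20). The sucrose exporters SWEET11, SWEET12 and SWEET13 rose by 1.19 ± 0.12, 1.42 ± 0.16 and 2.75 ± 0.16. Against this, the trehalose phosphate synthase-like genes TPS8 and TPS11 fell by 2.199 ± 0.30 and 2.01 ± 0.16, TPS11 from 52.5, 37.4 and 46.8 CPM to 10.51, 12.2 and 11.2 CPM. SAG29, a SWEET family gene given with the senescence genes below, was also lower at 0 mM (log2 fold change -3.70).

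Senescence genes were mixed in direction but mostly higher at 0 mM. Of 25 tested, 15 rose and 4 fell (median 0.66). SAG13, an early senescence marker, was read at 100.1, 94.3 and 86.2 CPM at 0 mM and 15.7, 22.2 and 15.2 CPM at 10 mM (log2 fold change 2.4002 ± 0.16, FDR 5.4e-12). SAG12, a cysteine protease of late senescence, was read at 133, 68.7 and 98.4 CPM and 35.3, 8.64 and 35.6 CPM, and its call (log2 fold change 1.91 ± 0.39, FDR 2.0e-04) was lost under DESeq2, with an FDR of 0.37. The chlorophyll breakdown genes NYC1 and NYE1 rose by 1.31 ± 0.14 and 0.68 ± 0.10, while PPH, which removes the phytol tail, was not called (log2 fold change 0.05 ± 0.09, FDR 0.63). NAC042, known as JUB1, a NAC factor that extends leaf life, rose from 1.01, 0.176 and 0.715 CPM to 8.41, 8.83 and 8.53 CPM. SEN1, induced by darkness, went the other way, from 12.5, 16.6 and 13.8 CPM to 0.876, 0.642 and 0.947 CPM (log2 fold change -4.08 ± 0.47), and SAG29, a sugar transporter of the SWEET family, from 56.2, 72.7 and 51.5 CPM to 2.63, 6.10 and 4.89 CPM (log2 fold change -3.70 ± 0.35). SAG21 fell by 0.56 ± 0.14.

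Autophagy genes, whose products enclose cytoplasm for breakdown in the vacuole, rose by small amounts. Of 21 tested, 12 rose and 1 fell (median 0.26), with 61.9% called against 55.5% of all tested genes. ATG2 and APG5 (ATG5) rose by 0.70 ± 0.16 and 0.63 ± 0.17, and the ubiquitin-like ATG8G from 23.8, 28.9 and 24.3 CPM to 41.5, 43.0 and 37.3 CPM (log2 fold change 0.66 ± 0.13). The 1 that fell was ATG8E, from 55.7, 47.8 and 62.4 CPM to 33.3, 27.5 and 36.2 CPM (log2 fold change -0.77 ± 0.12, FDR 4.7e-06). Members of the ATG8 family share sequence, and each is read here from its own 3' end.

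Nuclear photosynthesis genes fell as a group. Of 48 tested, 39 fell and 2 rose (median -0.58). In 37 every library at 0 mM was below every library at 10 mM, and in 2 every one was above. Of all tested genes, 59.6% had no overlap in either direction. Under library totals alone 34 fell and 2 rose. LHCB6, a light-harvesting protein of photosystem II, was read at 660.4, 744 and 582 CPM at 0 mM and 1658, 1619 and 1688 CPM at 10 mM (log2 fold change -1.32 ± 0.07, FDR 3.3e-14). LHCA1, of the photosystem I antenna, fell by 1.07 ± 0.07, and LHCB2.2 by 1.118 ± 0.06. PETE1, a plastocyanin that carries electrons to photosystem I, fell from 586, 582 and 564 CPM to 207, 216 and 190.2 CPM (log2 fold change -1.4999 ± 0.06). RBCS2B, a small subunit of Rubisco, fell by 0.97 ± 0.09, and its near copies could divide reads with it. Some genes stood outside the fall: PETC, of the cytochrome b6f complex, was at 779, 787 and 770.3 CPM and 768, 696 and 833 CPM (FDR 0.78), and RCA, Rubisco activase, rose by 0.37 ± 0.07 (FDR 1.3e-04).

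The neighbouring pathway of photorespiration, which recycles the product of Rubisco's oxygenation, had 8 of 14 tested genes lower and 0 higher (median -0.26), or 5 lower and 1 higher under library totals alone. Called genes made up 57.1% of this list, near the 55.5% of all tested genes. With edgeR, 0 members were higher at an unadjusted p under 0.05 as well, and DESeq2 also called 0. DiT1, the plastid 2-oxoglutarate/malate carrier, fell from 266, 206 and 279 CPM to 128, 118 and 122 CPM (log2 fold change -1.03 ± 0.10, FDR 4.7e-09). HPR, hydroxypyruvate reductase, fell by 0.49 ± 0.06, and DIT2.1, the dicarboxylate carrier, by 0.44 ± 0.10. CAT2, the leaf catalase, was not called (log2 fold change -0.10 ± 0.06, FDR 0.19). Genes encoded in the organelles moved opposite to the nuclear genes. Of 84 chloroplast-encoded genes tested, 63 rose and 0 fell (median 0.66), and of 17 mitochondrion-encoded genes 12 rose and 0 fell (median 0.68). With edgeR 0 chloroplast-encoded genes and 1 mitochondrion-encoded gene were lower at an unadjusted p under 0.05, and DESeq2 called 0 lower in both lists. Mature organelle transcripts are for the most part not polyadenylated, while this assay selects poly(A) RNA.

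**Figure D3:**
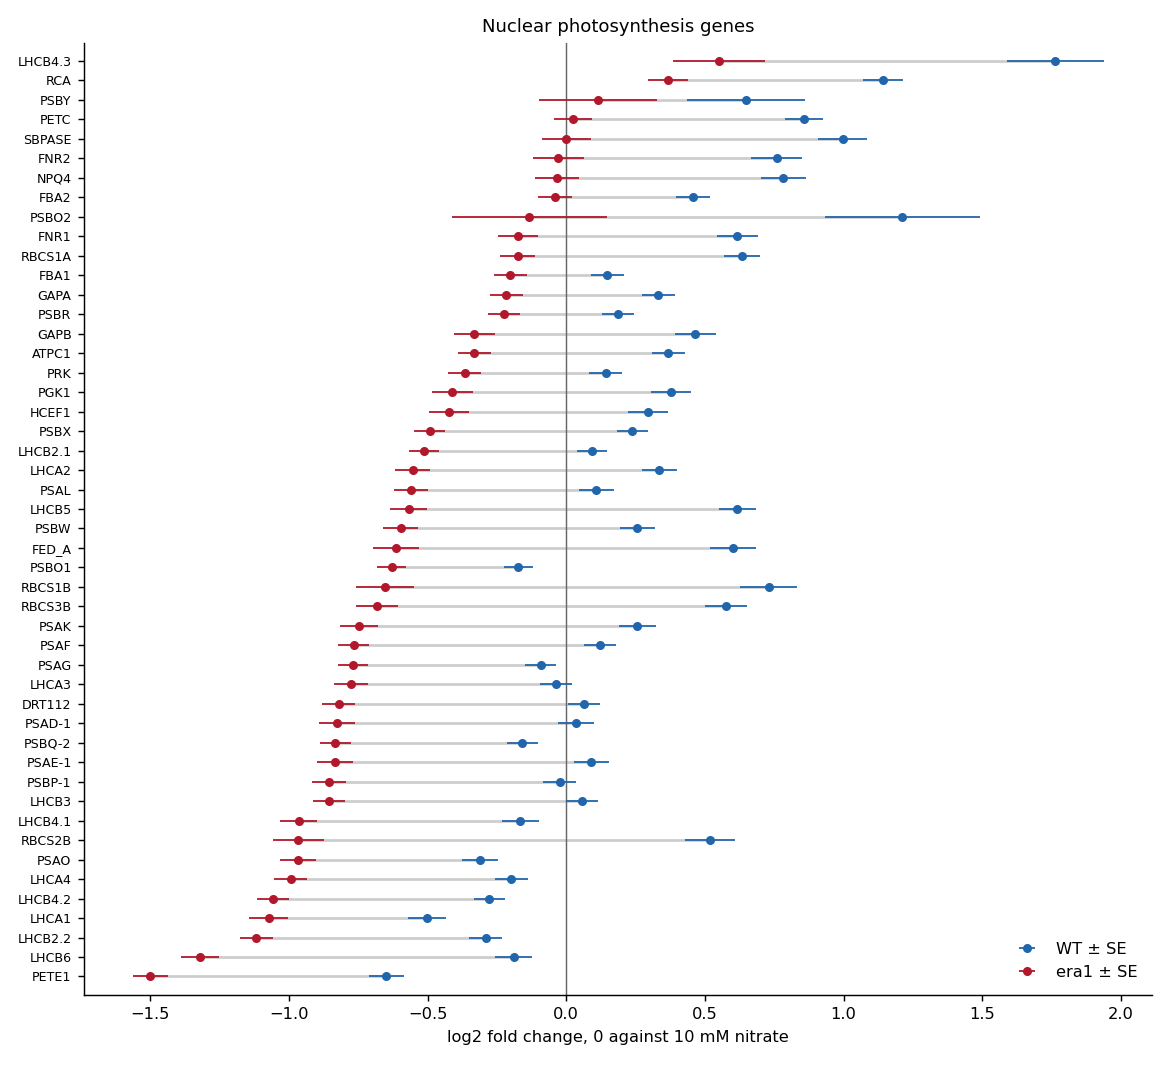
Log2 fold change of each of 48 nuclear photosynthesis genes between 0 and 10 mM nitrate, in era1 and in WT, with bars for the SE of the fit. Every era1 value lies to the left of the WT value of the same gene, and the medians are -0.58 in era1 and 0.25 in WT.

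Ribosome genes were mostly lower at 0 mM. Of 31 tested ribosome and ribosome biogenesis genes, 24 fell and 3 rose (median -0.31). Under library totals alone 17 fell and 4 rose (median -0.19). RPS6, a ribosomal protein that is phosphorylated when growth signals are active, fell from 313, 331 and 322 CPM to 175, 175 and 157 CPM (log2 fold change -0.93 ± 0.07). ATARCA, known as RACK1A, a ribosomal scaffold, fell by 0.85 ± 0.07. The 3 that rose held the growth kinases S6K2, from 2.53, 2.998 and 2.68 CPM to 11.04, 11.6 and 14.999 CPM (log2 fold change 2.19 ± 0.20), and TOR (log2 fold change 0.49 ± 0.13). Cytokinin response genes were also mostly lower, with 10 of 14 lower and 1 higher (median -0.83). IPT3, a nitrate-inducible enzyme of cytokinin synthesis, fell from 30.4, 26.3 and 24.5 CPM to 7.88, 7.07 and 7.89 CPM, and the response regulators RR5 (ARR5) and ARR6 fell by 1.77 ± 0.20 and 1.61 ± 0.19. The 1 that rose was RR16 (ARR16; log2 fold change 1.15 ± 0.14). PIF4, a bHLH factor of light-controlled growth, fell from 130.2, 128 and 126 CPM to 38.4, 36.0 and 38.0 CPM (log2 fold change -1.78 ± 0.08).

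Phosphate starvation genes did not move together. Of 26 tested, 11 rose and 6 fell (median 0.29), with 65.4% called against 55.5% of all tested genes. Genes of lipid remodelling were among those that rose. MGDC, known as MGD3, a galactolipid synthase that replaces phospholipids, was read at 22.3, 27.9 and 29.4 CPM at 0 mM and 0.337, 0.353 and 0.715 CPM at 10 mM (log2 fold change 5.77 ± 0.37, FDR 2.0e-12). MGD2 rose by 1.34 ± 0.15, DGD1 by 0.71 ± 0.09 and the phospholipase PLDP2 by 1.13 ± 0.23. AT5G03545, a noncoding RNA of the AT4 family that binds miR399, fell from 26.0, 39.9 and 24.7 CPM to 6.83, 3.37 and 3.63 CPM (log2 fold change -2.72 ± 0.26). SRG3, a glycerophosphodiester phosphodiesterase, fell by 1.95 ± 0.22 and SPX1, a phosphate sensor, by 0.97 ± 0.14. PHO2, which marks phosphate transporters for removal, rose from 148, 136 and 141 CPM to 248, 256 and 217 CPM (log2 fold change 0.76 ± 0.09).

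Promoters of this list are shown because genes that hold the same P1BS letters, the site of the phosphate factor PHR1, moved in opposite directions. Capitals mark GNATATNC, where N is any base, searched on both strands. AT5G03545 and SRG3 fell, while MGD2 and PLDP2 rose.
AT5G03545 (chr5:894282-894581, plus strand): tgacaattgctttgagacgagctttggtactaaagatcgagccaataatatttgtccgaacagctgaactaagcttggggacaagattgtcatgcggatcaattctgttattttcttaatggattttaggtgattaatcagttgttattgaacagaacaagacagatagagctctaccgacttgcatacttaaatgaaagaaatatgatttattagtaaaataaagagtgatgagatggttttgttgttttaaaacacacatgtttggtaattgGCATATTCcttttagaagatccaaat
SRG3 (chr3:350041-350162, minus strand): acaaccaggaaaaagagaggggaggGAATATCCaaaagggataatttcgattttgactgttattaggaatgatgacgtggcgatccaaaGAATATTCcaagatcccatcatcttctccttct
MGD2 (chr5:6896424-6896462, plus strand): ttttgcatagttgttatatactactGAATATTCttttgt
PLDP2 (chr3:1634989-1635046, plus strand): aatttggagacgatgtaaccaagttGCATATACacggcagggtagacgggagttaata
The motif lay in 6 of 26 promoters of the list (23.1%), 3 of genes that rose and 2 of genes that fell, and in 6.51% of all promoters.

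Metal and sulfur genes were more often lower at 0 mM. Of 28 tested iron, copper and zinc genes, 15 fell and 5 rose (median -0.36). FSD1, an iron superoxide dismutase of the chloroplast, had 0.35, 5.14 and 0.316 CPM at 0 mM and 142, 94.7 and 127 CPM at 10 mM (log2 fold change -5.93 ± 0.29, FDR 2.0e-14), and replicate 2 at 0 mM was the highest of its group. NAS1, which makes the metal chelator nicotianamine and has near copies, fell from 241, 181 and 243 CPM to 27.9, 22.2 and 11.4 CPM (log2 fold change -3.45 ± 0.17). The iron-deficiency factors BHLH100 and bHLH39 fell from 6.07, 4.41 and 9.11 CPM to 0.35, 0.642 and 0 CPM and from 4.05, 2.47 and 3.75 CPM to 0, 0.482 and 0.316 CPM. FER1, an iron store, and YSL1, a carrier of iron chelates, rose by 1.35 ± 0.17 and 1.7995 ± 0.14. Of 13 sulfur deficiency genes, 7 fell and 1 rose (median -0.23), with 61.5% called against 55.5% of all tested genes. LSU1 and ATSDI1 (SDI1), low-sulfur marker genes, fell from 21.9, 13.4 and 22.3 CPM to 1.58, 2.89 and 2.37 CPM and from 22.4, 17.63 and 20.4 CPM to 1.58, 2.41 and 2.9997 CPM (log2 fold changes -3.05 ± 0.32 and -3.09 ± 0.25). The root sulfate transporter SULTR1;2 was the 1 that rose, at 2.63, 2.73 and 2.53 CPM against 0.843, 0.529 and 0.357 CPM. SULTR3;5, a related transporter, had 10.8, 7.23 and 11.97 CPM at 10 mM and 0.175, 0.321 and 0 CPM at 0 mM, where it rested on 3 reads.

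Abscisic acid genes moved in both directions. Of 48 tested, 19 rose and 16 fell (median 0.22), with 72.9% called against 55.5% of all tested genes. The receptors PYR1 and PYL4 rose by 0.92 ± 0.07 and 1.51 ± 0.12, the kinase OST1 by 0.72 ± 0.13 and the phosphatase ABI1, a negative regulator, by 0.70 ± 0.11. CYP707A1, which breaks the hormone down, rose from 0.675, 1.41 and 1.25 CPM to 4.21, 6.26 and 5.68 CPM (log2 fold change 2.27 ± 0.30), while NCED3, which makes it under drought, was not called (9.99, 10.3 and 12.3 CPM and 10.96, 11.3 and 11.4 CPM, FDR 0.86). Several response genes fell. LTI65, known as RD29B, had 0.175, 4.66 and 0.474 CPM at 0 mM and 26.3, 66.0 and 26.4 CPM at 10 mM (log2 fold change -4.44 ± 0.54, FDR 1.6e-07), and without replicate 2 at 0 mM its log2 fold change was -6.80. RAB18, a dehydrin, fell from 215, 339 and 168 CPM to 51.3, 83.2 and 43.6 CPM (log2 fold change -2.02 ± 0.23), and KIN1, RD26 and COR15A fell by 2.83 ± 0.19, 1.72 ± 0.12 and 1.88 ± 0.10. The phosphatase HAI1, which the hormone induces, fell by 1.37 ± 0.18.

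The promoters of 3 of these genes are shown because they hold the ABRE, the element read by ABA-responsive bZIP factors, yet moved differently: LTI65 and RAB18 fell and CYP707A1 rose. Capitals mark ACGTGTC, or its reverse complement GACACGT in CYP707A1. The search took this form of the element alone, and other forms are neither marked nor counted.
LTI65 (chr5:21236721-21237020, plus strand): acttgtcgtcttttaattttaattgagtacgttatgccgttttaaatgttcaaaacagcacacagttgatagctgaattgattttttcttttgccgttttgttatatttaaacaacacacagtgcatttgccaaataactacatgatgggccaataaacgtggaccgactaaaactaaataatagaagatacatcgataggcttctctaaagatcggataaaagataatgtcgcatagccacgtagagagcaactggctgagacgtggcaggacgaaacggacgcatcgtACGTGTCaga
RAB18 (chr5:26519527-26519583, minus strand): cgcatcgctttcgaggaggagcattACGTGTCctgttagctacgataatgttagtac
CYP707A1 (chr4:10521212-10521258, plus strand): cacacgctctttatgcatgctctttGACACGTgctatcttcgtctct
The motif lay in 12 of 48 promoters of the list (25%), in 4.05% of all promoters and in 4.73% of those of tested genes. Within the list it lay in 6 of the 19 genes that rose and 4 of the 16 that fell.

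Defence genes are given by hormone, and the hormones were not tested against each other. Of 28 salicylic acid and pathogen defence genes, 10 rose and 3 fell (median 0.21). Called genes made up 46.4% of this list, below the 55.5% of all tested genes. CBP60G and SARD1, factors that switch on salicylic acid synthesis, rose by 1.79 ± 0.16 and 1.33 ± 0.28, yet the synthesis gene EDS16 (ICS1) fell from 31.5, 26.1 and 27.9 CPM to 15.2, 19.6 and 16.4 CPM (log2 fold change -0.74 ± 0.15). WRKY33 and WRKY46, stress-induced factors, rose by 1.62 ± 0.23 and 1.27 ± 0.17, as did WRKY53 of the senescence list, by 1.79 ± 0.26. PR1, the classical marker of the pathway, was not called (4.91, 6.75 and 4.42 CPM and 8.10, 6.52 and 5.72 CPM, FDR 0.67). The letters TTGACC, 1 form of the W-box read by WRKY factors, lay in 1 of 28 promoters of the list (3.57%) and in 14.0% of all promoters. Other forms of the W-box were not searched, so this is no count of all WRKY sites.

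Jasmonic acid genes fell more often than they rose, 16 against 8 of 39 (median -0.33). Under library totals alone the numbers were 12 and 9 (median -0.21). Called genes made up 61.5% of this list, against 55.5% of all tested genes. VSP1, a vegetative storage protein, fell from 23.3, 26.5 and 16.3 CPM to 4.73, 5.46 and 1.105 CPM (log2 fold change -2.55 ± 0.31), and the repressor gene JAZ3 fell by 0.53 ± 0.11. The defensin PDF1.2 was higher at 0 mM, at 12.6, 7.07 and 29.8 CPM against 0.506, 0.176 and 0.536 CPM (log2 fold change 5.27 ± 1.13), with near-identical copies that could divide its reads. Of 34 glucosinolate and camalexin genes, 16 fell and 7 rose (median -0.31), or 14 and 9 under library totals alone (median -0.19). CYP79B3, which opens the indole branch, fell from 59.4, 48.1 and 60.7 CPM to 21.7, 21.8 and 15.5 CPM (log2 fold change -1.51 ± 0.13) and SOT16, a sulfotransferase of the core pathway, by 1.06 ± 0.10. CYP81F2 and IGMT3, which modify indole glucosinolates, were higher, at 12.4, 10.4 and 16.9 CPM against 2.02, 0.882 and 1.97 CPM and at 7.71, 30.04 and 10.7 CPM against 0.169, 0.529 and 0.179 CPM. ESP, which directs glucosinolate breakdown, had 58.7, 614 and 119 CPM at 0 mM and 98.8, 94.3 and 95.4 CPM at 10 mM, and its call (log2 fold change 1.46 ± 0.43, FDR 0.0054) rested on replicate 2 at 0 mM, without which the value was -0.11.

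Clock genes were more often higher at 0 mM, 16 against 4 of 33 (median 0.24). Called genes made up 60.6% of this list, against 55.5% of all tested genes. The morning factors CCA1 and LHY rose, CCA1 from 92.9, 101 and 99.7 CPM to 268, 297 and 268 CPM (log2 fold change 1.504 ± 0.07) and LHY by 0.74 ± 0.07. PRR9 rose by 1.99 ± 0.21 and GI by 1.41 ± 0.10. PCL1, known as LUX, an evening factor, fell from 16.5, 7.58 and 15.7 CPM to 1.402, 1.61 and 1.74 CPM (log2 fold change -3.05 ± 0.29), and TOC1, another evening gene, was not called (FDR 0.91). The hour of sampling of each library is not given in the sources used here, so a shift in phase and a shift in sampling time cannot be told apart. The promoter of PCL1 is shown for its evening element AAAATATCT, in capitals, which lay in 8 of 33 promoters of the list (24.2%) and in 2.79% of all promoters.
PCL1 (chr3:17182964-17183022, plus strand): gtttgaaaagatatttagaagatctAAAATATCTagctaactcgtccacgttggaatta
Of the 4 clock genes that fell, 1 held the element, against 2 of the 16 that rose.

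Flowering and heat shock genes were more often higher. Of 14 flowering genes, 8 rose and 3 fell (median 0.42). TSF, a florigen close to FT, was read at 4.91, 3.05 and 6.32 CPM at 0 mM and 0.169, 0 and 0 CPM at 10 mM, a single read in 3 libraries. Its bZIP partner FD rose by 1.91 ± 0.25 and the floral repressor FLC by 0.73 ± 0.21, while the floral integrator AGL20, known as SOC1, fell from 34.9, 50.6 and 36.1 CPM to 24.5, 33.1 and 21.8 CPM (log2 fold change -0.61 ± 0.15). Of 27 heat shock genes, 15 rose and 4 fell (median 0.35). HSFA2, a heat stress factor, was read at 369.7, 219.6 and 388 CPM at 0 mM and 135, 125 and 119 CPM at 10 mM (log2 fold change 1.37 ± 0.15), and the disaggregase HSP101 rose by 1.06 ± 0.16. BIP3, a chaperone of the endoplasmic reticulum, and HSP70T-2 fell by 1.72 ± 0.34 and 1.39 ± 0.17.

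Genes of prenylation, the function of ERA1, moved in both directions. Of 22 tested genes of prenylation and isoprenoid supply, 4 rose and 6 fell (median -0.16), and under library totals alone 6 rose and 6 fell. The farnesyl diphosphate synthases FPS1 and FPS2, which make the lipid donor, fell by 0.73 ± 0.08 and 0.77 ± 0.12, and HMG1, an entry enzyme of the mevalonate pathway, fell from 541, 538 and 525 CPM to 356, 329 and 320.0 CPM (log2 fold change -0.67 ± 0.08). FACE2, a protease that trims prenylated proteins, rose by 0.71 ± 0.20. Of 17 genes for known farnesylated or isoprenylation-motif proteins, 4 rose and 4 fell (median -0.01), a median that turned to 0.11 under library totals alone. Called genes made up 45.5% of the prenylation list and 47.1% of the farnesylation list, against 55.5% of all tested genes. Neither list was tested against that share. The metal-binding FP6 (HIPP26) and FP3 fell by 0.83 ± 0.12 and 0.45 ± 0.08, HIPP25 rose by 1.09 ± 0.15, and the G-protein subunit GG1 (AGG1) and the chaperone J3 were not called (FDR 0.72 and 0.15). J3 was called higher under library totals alone (0.24, FDR 0.0042), with a minimum count of 30 (FDR 0.048) and without organelle genes (FDR 0.048). These are transcript levels, and no farnesylation was measured.

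The response of era1 was then set against that of WT. WT had 3 libraries at each dose, none shared with era1, and the interaction in the same fit tested the response of era1 minus the response of WT. It was called higher in era1 at 2863 genes (15.6%) and lower at 3542 genes (19.3%). Under library totals alone these numbers were 4385 and 2610, so that the share of higher calls moved from 44.7% to 62.7%. Across the 18358 genes the log2 fold changes of the genotypes correlated with Pearson's r of 0.487 and Spearman's rho of 0.482, a description across genes that are not independent. Of the genes called in era1, 2699 were higher in both genotypes, 2756 were lower in both, 332 rose in era1 and fell in WT, and 594 fell in era1 and rose in WT. The remainder, 2023 that rose and 1793 that fell, were not called in WT.

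**Figure D4:**
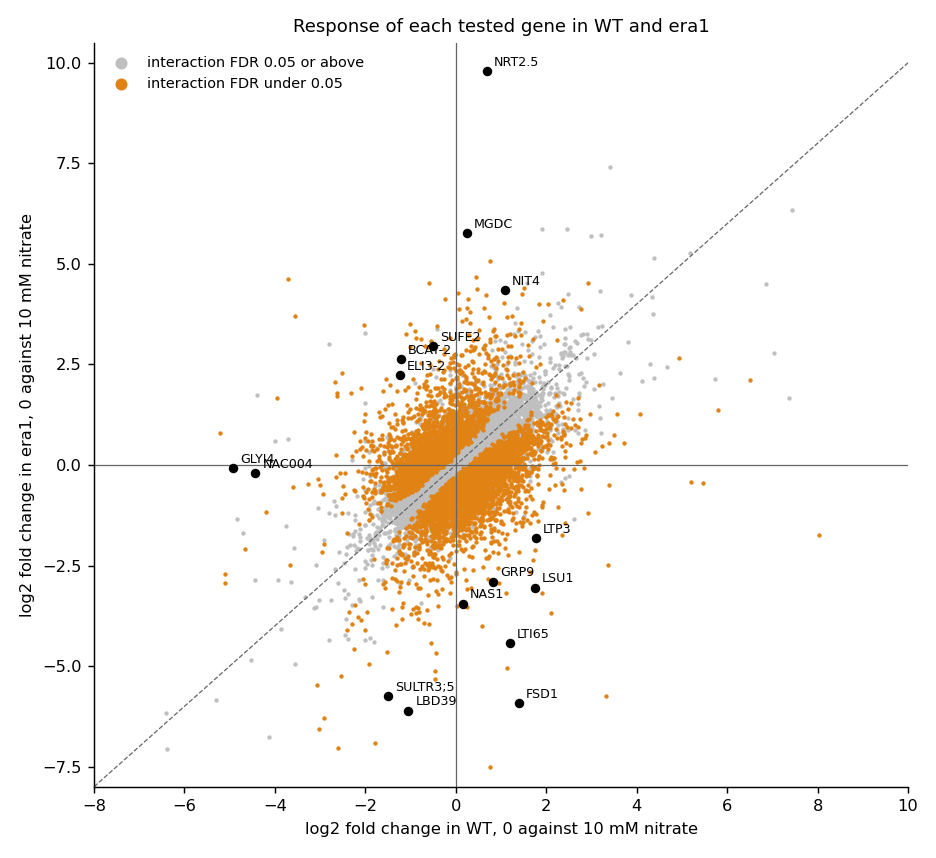
Log2 fold change of each of 18358 genes between 0 and 10 mM nitrate in WT (x axis) and era1 (y axis), with genes of an interaction FDR under 0.05 in colour and the 16 genes chosen by the naming rule in black. The dashed line marks equal responses. The fitted value of NRT2.5, which has 0 reads in era1 at 10 mM, depends on the prior count of the fit and is no measure of its fold.

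Some nitrogen genes responded in era1 by more than in WT, while for others the difference was not called. NIR1 was read at 413, 343 and 340.1 CPM at 0 mM and 369, 345 and 372 CPM at 10 mM in WT, a log2 fold change of 0.01 ± 0.11 against -2.71 ± 0.12 in era1 (interaction -2.72 ± 0.17, FDR 2.0e-11). CLC-A fell in WT by 1.18 on the log2 scale, and the interaction was -2.34 ± 0.15 (FDR 2.2e-11). LBD39 went from 30.4, 28.3 and 27.3 CPM to 17.38, 12.7 and 11.3 CPM in WT, against under 1 CPM at 0 mM in era1 (interaction -5.06 ± 0.37, FDR 3.9e-10). ASN2 and LBD37 had interactions of -2.18 ± 0.14 and -2.28 ± 0.17. GLN1;4 and GSR 1 rose further in era1, with interactions of 2.89 ± 0.42 and 1.39 ± 0.21, as did DUR3 (2.47 ± 0.23) and NIT4 (3.27 ± 0.34). AMT1;1 rose in era1 and fell in WT, from 197, 230.4 and 235 CPM to 149.8, 146 and 183 CPM (interaction 1.23 ± 0.12, FDR 3.6e-08). NIA1 and NRT1.1 had log2 fold changes of -2.68 ± 0.18 and 1.45 ± 0.09 in WT, and their interactions of 0.08 ± 0.25 and 0.16 ± 0.12 did not pass the test (FDR 0.83 and 0.33), although that of NRT1.1 was called under library totals alone (0.31, FDR 0.0499). NRT2.5 had 0, 0 and 0.37 CPM at 0 mM and 0, 0 and 0.208 CPM at 10 mM in WT, and its interaction (FDR 0.029) was lost without replicate 3 of WT at 10 mM, with an FDR of 1.0.

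Photosynthesis genes responded lower in era1 than in WT at nearly every member. In WT 28 of the 48 rose and 10 fell (median 0.25), and the interaction was lower in era1 at 47 of 48 genes and higher at 0, or at 46 and 0 under library totals alone. With edgeR 0 were higher at an unadjusted p under 0.05, and DESeq2 called 0 higher. LHCB6 was at 1751, 1672 and 1631 CPM at 0 mM and 1967, 1903 and 1893 CPM at 10 mM in WT (interaction -1.13 ± 0.09, FDR 2.3e-09). RBCS2B rose in WT from 1461, 1448 and 1533 CPM to 2254, 2235 and 1870.3 CPM (interaction -1.48 ± 0.13, FDR 3.9e-09). The summed level of the list was 80638 to 85685 CPM in WT at 0 mM and 73144 to 74087 CPM at 10 mM. Photorespiration genes had 12 of 14 interactions lower in era1, or 8 of 14 under library totals alone. The chloroplast-encoded genes had 58 of 84 lower, or 45 of 84 under library totals alone, and their median in WT was 1.51.

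Salicylic acid and autophagy genes differed in the opposite direction. In WT 15 of 28 salicylic acid genes fell and 2 rose (median -0.66), and the interaction was higher in era1 at 15 of 28 and lower at 0, also 0 lower at edgeR's unadjusted p under 0.05 and with DESeq2. WRKY46 had a log2 fold change of -0.06 ± 0.16 in WT (interaction 1.33 ± 0.23, FDR 7.1e-05). Of the 21 autophagy genes, 10 fell and 2 rose in WT, and the interaction was higher in era1 at 13. SAG13 was at 15.3, 14.5 and 13.7 CPM and 12.9, 20.8 and 11.5 CPM in WT (interaction 2.45 ± 0.27), and ERD5 at 21.0, 23.7 and 23.5 CPM and 32.7, 18.8 and 21.9 CPM (interaction 2.78 ± 0.38). The interaction was higher for 12 of 25 remobilisation genes and lower for 3.

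With TMM, most sulfur, glucosinolate and cytokinin genes were called with lower responses in era1, against 19.3% of all tested genes. The interaction was lower at 10 of 13 sulfur genes, whose median in WT was 0.75. LSU1 rose in WT from 1.63, 1.93 and 1.04 CPM to 6.42, 5.88 and 3.33 CPM (interaction -4.80 ± 0.55, FDR 3.3e-07), LSU2 had an interaction of -1.74 ± 0.18 and ATSDI1 of -3.35 ± 0.43. The interaction was lower at 13 of 39 jasmonic acid genes, higher at 1 and not called at 25, with VSP1 at -3.50 ± 0.44. Under library totals alone 11 were lower and 3 higher. Of 34 glucosinolate genes, 20 were lower and 4 higher, or 15 and 4 under library totals alone. MYB29, a factor of aliphatic glucosinolate synthesis, had an interaction of -1.57 ± 0.22. Of 14 cytokinin genes, 10 were lower and 2 higher, with ARR6 at -1.68 ± 0.24.

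Single genes of other lists differed by larger amounts. FSD1 was read at 0.944, 0.979 and 0.924 CPM at 0 mM and 0.613, 0.214 and 0.208 CPM at 10 mM in WT, so that the era1 libraries at 10 mM were the highest among these 12 (interaction -7.32 ± 1.26, FDR 6.9e-05). LTI65 was at 14.2, 9.99 and 3.33 CPM and 5.72, 3.21 and 2.91 CPM in WT (interaction -5.63 ± 0.84), and RD26 had an interaction of -2.26 ± 0.17. NAS1 was at 138, 111 and 122 CPM and 106, 115 and 114 CPM (interaction -3.60 ± 0.23), and MGDC at 1.89, 1.96 and 3.33 CPM and 0.409, 2.78 and 2.91 CPM (interaction 5.52 ± 0.70). BCAT-2 fell in WT, from 4.09, 3.85 and 2.71 CPM to 1.89, 1.57 and 1.109 CPM (interaction 3.84 ± 0.46). For GLYI4, a glyoxalase family gene, and NAC004, a NAC factor, the difference lay in WT, where NAC004 fell from 19.6, 17.3 and 21.7 CPM to 0.756, 0.588 and 1.29 CPM while era1 had 2.80, 3.37 and 3.47 CPM and 3.54, 3.35 and 4.29 CPM. Anthocyanin genes had 8 interactions higher and 7 lower of 31, starch and sugar genes 10 and 11 of 53, and ribosome genes 5 and 6 of 31. Under library totals alone these counts were 11 and 5, 11 and 8, and 8 and 5.

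**Figure D5:**
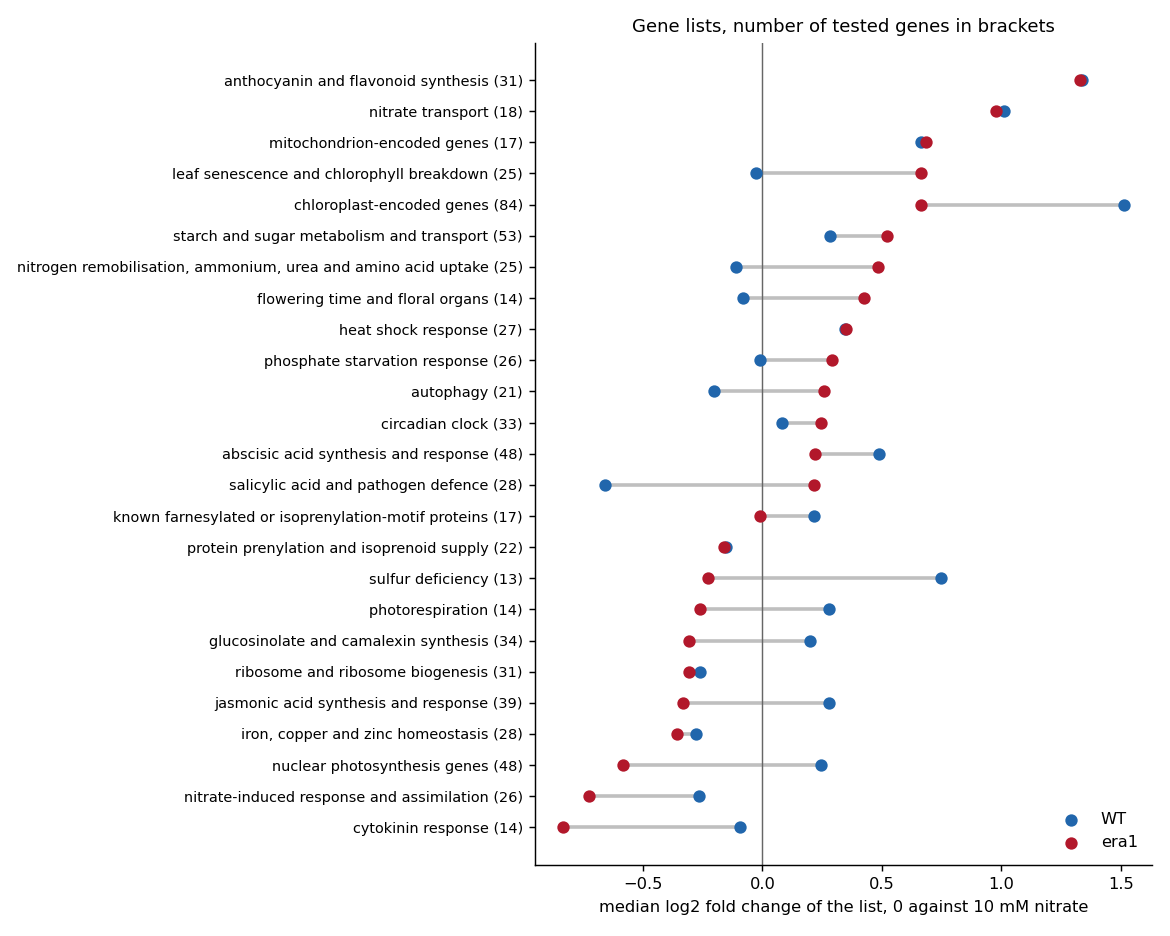
Median log2 fold change between 0 and 10 mM nitrate of each gene list with at least 10 tested genes, in era1 and in WT, ordered by the era1 value. The number of tested genes stands in brackets. Anthocyanin genes have medians of 1.33 in era1 and 1.34 in WT, and salicylic acid genes 0.21 and -0.66.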

How the data were processed

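The authors deposited whole-number read counts per gene for each library, one HTSeq-style table each, from stranded single-end 3' mRNA sequencing (QuantSeq, per the labels' protocols). TopHat2 and TAIR10 are named in the submitters' processing notes, with no version or parameter, and the strand setting of the counting is not stated. The 5 counter rows of each file entered neither library sizes nor tests (no feature 5.06% and 3.95%, not unique 4.74% and 2.52% of all counts in era1 at 0 and 10 mM). Replicate libraries differed beyond sampling noise (chi-square per degree of freedom 1.81 to 4.44 between era1 libraries of a group), so all were kept.

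Counts were tested with edgeR 4.0.16 (R 4.3.3): TMM scaling, a filter on low counts by group (minimum count 10, minimum total 15), 1 model of 6 groups over 18 libraries, quasi-likelihood tests and Benjamini-Hochberg adjustment over 18358 genes at 0.05. The SE is the log2 fold change over the root of F. DESeq2 1.42.0, other scalings and filters, a replicate block and libraries left out were alternatives. Gene symbols come from RefSeq TAIR10.1 (32548 of 32744 IDs matched), and promoter sequences and coordinates are those of TAIR10.1 and its annotation.

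Named genes were the 12 highest and 12 lowest with a symbol, a mean of at least 5 CPM and no overlap between groups, 8 each by interaction, up to 4 per list plus up to 2 in the opposite direction, the 3 most abundant in each direction and the targeted gene and its partners, 137 in all, and 101 were named after their values were seen. The members and the 24 gene lists, of which 638 of 718 entries were tested and 27 found no match, were chosen with earlier results of these data known.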

Additional observations from a re-analysis of the deposited data

Results flagged for a closer look

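The genes below had a response to nitrate withdrawal in era1 that differed from that in WT by the interaction test of the fit, and each value is the log2 fold change of era1 minus that of WT. The response of era1 was lower for FSD1 (-7.32), LTI65 (-5.63), LBD39 (-5.06), LSU1 (-4.80), SULTR3;5 (-4.24), GRP9 (-3.72), NAS1 (-3.60), LTP3 (-3.59), VSP1 (-3.50) and ATSDI1 (-3.35). It was also lower for the nitrogen genes NIR1 (-2.72), CLC-A (-2.34), LBD37 (-2.28) and ASN2 (-2.18), and for RD26 (-2.26), LSU2 (-1.74), ARR6 (-1.68), MYB29 (-1.57), RBCS2B (-1.48) and LHCB6 (-1.13).

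The response of era1 was higher for AMT1;1 (1.23), WRKY46 (1.33), GSR 1 (1.39), SAG13 (2.45), DUR3 (2.47), ERD5 (2.78), GLN1;4 (2.89), NIT4 (3.27), SUFE2 (3.45), ELI3-2 (3.46), BCAT-2 (3.84), NAC004 (4.22), GLYI4 (4.86) and MGDC (5.52). The fitted value of NRT2.5 was 9.11, which depends on the prior count because 3 of its 4 groups hold few or no reads, and it was not called without replicate 3 of WT at 10 mM (7.11, FDR 1.0). GRP9, a glycine-rich protein, was read at 25.8, 5.46 and 8.999 CPM at 0 mM and 138, 66.5 and 89.0 CPM at 10 mM in era1, against 65.0, 92.7 and 83.5 CPM and 52.3, 26.3 and 57.0 CPM in WT. LTP3, a lipid transfer protein with a near copy, was at 109.5, 111 and 81.3 CPM and 336, 452 and 276 CPM in era1 and 55.5, 53.7 and 29.0 CPM and 19.0, 12.8 and 8.54 CPM in WT. SUFE2, which acts in iron-sulfur cluster assembly, was at 17.5, 25.7 and 25.9 CPM and 2.87, 2.998 and 3.04 CPM in era1 and 5.10, 2.74 and 4.81 CPM and 4.90, 8.14 and 4.997 CPM in WT. GLYI4 fell in WT from 18.19, 13.9 and 10.4 CPM to 0.189, 0.392 and 0.739 CPM, and in era1, where it was not called, its log2 fold change was -0.07 with replicate 3 at 0 mM at 13.7 CPM and -1.22 (FDR 0.0035) without it.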

How the results depend on the processing

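Of the 6 counts over all genes, 5 stayed within 1.5 times their value in every alternative run, and the count of genes with a higher response in era1 moved from 2863 to 4385 under library totals alone, a scaling added after the data were seen. Leaving out each library in turn gave 4429 to 5110 genes higher and 4490 to 4879 lower at 0 mM, 1396 to 1670 and 1315 to 1531 of them by at least 2-fold, and 2386 to 3043 and 3122 to 3628 genes by interaction. DESeq2 gave 4290 higher and 4451 lower, and 2160 and 2983 by interaction. Deviations from the group means correlated weakly between the doses in era1. Same-numbered libraries had correlations of 0.011, 0.036 and 0.035, and differently numbered ones of -0.033 to -0.0002. In WT these were -0.051 to 0.011 and -0.065 to 0.069. Whether replicate numbers mark a pairing was not tested. A replicate block gave 5010 higher and 5104 lower, and 2854 and 3535 by interaction. Of 238 named genes 218 were called, and 17 of these lost the call in some alternative, as did 25 of 143 by interaction. Calls were gained in some alternative by 7 named genes (ERA1, GLYI4, J3, LSU2, MYB29, NPR1 and NRT1.9), and by 26 by interaction. ESP turned from 1.46 to -0.11 (FDR 0.58) without replicate 2 of era1 at 0 mM and was up to 1.97 with another library left out. Of 720 list counts under the alternatives, 695 stayed within 1.5 times. Genes at a few counts per library have the least precise fold changes.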

Other observations

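The era1 libraries at 2 mM nitrate give the level at a dose between those compared above (n = 3, SD), and not every level lay between. LBD39 was at 13.8 ± 2.93 CPM, NIR1 at 196 ± 15.2 CPM and CLC-A at 113 ± 1.82 CPM. MYB90 was at 0.579 ± 0.281 CPM, GPT2 at 6.25 ± 3.39 CPM and MGDC at 8.35 ± 1.64 CPM. LHCB6 was at 1955 ± 77.0 CPM, FSD1 at 0.972 ± 0.225 CPM and LTI65 at 12.4 ± 5.82 CPM. NRT2.5 was at 0.537, 0.357 and 0 CPM in the 3 libraries at 2 mM.

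Genes outside the lists were also among the largest changes. MEE3, a MYB-related factor, was at 59.0, 59.9 and 56.7 CPM at 0 mM and 2.19, 2.47 and 2.86 CPM at 10 mM, and RL1, of the same family, at 8.94, 13.8 and 17.2 CPM and 0.169, 0.176 and 0.357 CPM. UMAMIT33, a carrier of the amino acid exporter family, was at 0, 0.321 and 0.158 CPM and 10.8, 12.3 and 8.75 CPM. ADS1, a fatty acid desaturase, fell from 47.1, 39.7 and 35.7 CPM to 2.98, 3.53 and 1.89 CPM (log2 fold change -3.86 ± 0.26), and EXPA16, an expansin that loosens cell walls, from 19.9, 18.3 and 19.3 CPM to 1.93, 2.25 and 0.789 CPM (log2 fold change -3.53 ± 0.22). IAA29, an auxin response repressor, fell from 19.6, 16.4 and 25.01 CPM to 2.63, 1.124 and 1.105 CPM. Among abundant transcripts, MT3, a metallothionein, rose from 835, 813 and 874 CPM to 1795, 1702 and 1659 CPM (log2 fold change 1.03 ± 0.07).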
